A study of Mus musculus with 30 samples.

Results

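BerberineA, 1 of 8 small molecules applied to mouse tail fibroblasts, was compared with the solvent DMSO across the transcriptome. The comparison used the 3 libraries titled BerberineA (replicates 1 to 3) and the 6 titled DMSO (replicates 1 to 6), 9 of the 30 libraries of the series. Genes with at least 1 TPM (transcripts per 1000000 transcripts) in at least 3 of these 9 libraries were kept, which left 12917 of 29861 listed genes, 12259 of them protein-coding.

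All libraries came from CCG-HTA-1, a primary tail fibroblast line from UMHet3 mice, a genetically mixed stock, taken at 5 to 8 weeks of age for these 9 libraries and used at passage 4. Per the labels, cells were grown in high-glucose DMEM without pyruvate, with 10% FCS and antibiotics, at 37 °C and 10% CO2 in ambient oxygen. They received the compound or DMSO 24 hours after plating, at about 80% confluence, and RNA was taken 48 hours later. The labels give no dose and do not say what the letter A in the name BerberineA stands for. The study's title asks which stress resistance pathways depend on the transcription factor NRF2 and which do not. All cultures are of 1 line and none of a separate animal, so p-values measure the spread between these cultures or libraries, which may in part be technical. The description fields hold bare numbers, from 82958 to 82960 for BerberineA and from 82975 to 82980 for DMSO, and the labels do not say what these stand for; anything that went with them cannot be told apart from the compound. The series text counts 5 DMSO replicates, and all 6 libraries titled DMSO were used.

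As background, berberine is a plant alkaloid known to accumulate in mitochondria and to inhibit complex I of the respiratory chain, the enzyme that passes electrons from NADH to ubiquinone. A slowed respiratory chain is known to engage AMPK, the cell's energy sensor, and the integrated stress response, in which the kinases of eIF2alpha lower general translation and let the transcription factor ATF4 through. Fibroblasts also carry an innate immune programme: nucleic acid sensors signal through IRF3 and IRF7 to interferons, and interferons signal through factors such as STAT2 and IRF9 to a set of antiviral genes whose promoters often hold an interferon-stimulated response element, or ISRE. NF-kB, a second innate immune factor, drives cytokines such as Il6 and neutrophil-attracting chemokines such as Cxcl1.

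Most listed interferon-stimulated genes were higher in BerberineA, and most listed endoplasmic reticulum chaperones and sterol genes and 17 of 36 inflammatory genes were lower, with most changes small. Of 12917 genes tested, 2965 (23.0%) passed an adjusted p of 0.05 by limma, a linear model with shared variance estimates, fitted on log2(TPM + 1) with Benjamini-Hochberg adjustment. Of these, 1711 (13.2% of genes tested) were higher in BerberineA and 1254 (9.71%) were lower. Changes below are limma estimates of BerberineA minus DMSO on this log2 scale, ± standard error, which understates the change of genes at low TPM. Among the called genes 97.2% changed by less than 2-fold on this scale, while 57 (0.441% of genes tested) rose and 27 (0.209%) fell by at least 2-fold. In 1414 genes (10.9%) every BerberineA library lay above every DMSO library, and in 1154 (8.93%) every one lay below. The split between rises and falls depended on scaling: 57.7% of called genes were higher with TPM as deposited and 48.3% to 48.6% with 3 other scalings, under which the median change of all genes moved from 0.024 to near 0.

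Of 4 overall measures compared between the groups, 2 had an exact permutation p below 0.05. Between 12569 and 12700 genes reached 1 TPM in each of the 9 libraries, and the deposited values summed to between 934386 and 937135 TPM, below the 1000000 of a full TPM column; the totals had an exact permutation p of 0.0595, and 0.0179 without DMSO replicate 4. The 20 most abundant genes held 16.9% ± 0.157 of the listed TPM in BerberineA (SD, n = 3) and 18.7% ± 0.330 in DMSO (SD, n = 6), with an exact permutation p of 0.0119, the smallest that the 84 splits of 3 and 6 libraries allow. Fibroblast markers were present throughout: the 12 listed markers summed to between 7427 and 7895 TPM in BerberineA and between 9669.5 and 10893 TPM in DMSO, with 2 higher and 5 lower. Markers of T and B lymphocytes, keratinocytes and skeletal muscle summed to at most 3.118 TPM in any of these libraries. The 12 macrophage markers summed to between 153.5 and 167.8 TPM in BerberineA and between 198.8 and 262.6 TPM in DMSO. In bulk RNA, fewer cells of a type and less RNA per cell cannot be told apart.

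The ISRE is shown first because some of the largest rises, those of Ifit3, Ifit3b, Tgtp2, Rsad2 and Phf11b, were in genes that carry it. The motif searched was GAAANNGAAA, on both strands, in RefSeq promoter windows of GRCm38.p6 that run from 250 bases before to 50 bases after each gene's start. It occurred in 19 of 40 listed interferon-stimulated genes with a window (47.5%), in 9 of 10 interferon-induced GTPases (90%), and in 5 of 17 antigen presentation genes (29.4%), against 1079 of 27025 windows of all genes (3.99%). Genes with a match did not all rise: among the interferon-stimulated genes Ifitm2 fell and Ifitm3 did not pass. A match is a description of letters and not of binding. Stretches of 100 bases follow for 5 of the genes described below, 5′ to 3′ on the gene's strand, with matches in capitals, merged where they overlap: Ifit3 at chr19:34583345-34583444 (+ strand), Rsad2 at chr12:26456518-26456617 (- strand), Bst2 at chr8:71537545-71537644 (- strand), Gbp3 at chr3:142559957-142560056 (+ strand) and Cxcl10 at chr5:92349040-92349139 (- strand).
Ifit3: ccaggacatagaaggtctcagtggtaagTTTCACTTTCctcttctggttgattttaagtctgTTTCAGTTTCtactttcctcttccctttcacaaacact
Rsad2: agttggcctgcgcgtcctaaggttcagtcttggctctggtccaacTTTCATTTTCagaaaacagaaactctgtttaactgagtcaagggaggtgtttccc
Bst2: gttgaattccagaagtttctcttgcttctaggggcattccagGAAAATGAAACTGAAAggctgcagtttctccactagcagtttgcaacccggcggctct
Gbp3: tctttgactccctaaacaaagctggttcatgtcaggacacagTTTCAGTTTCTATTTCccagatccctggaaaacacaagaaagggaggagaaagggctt
Cxcl10: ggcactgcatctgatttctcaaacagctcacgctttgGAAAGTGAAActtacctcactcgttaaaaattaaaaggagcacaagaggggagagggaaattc

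Interferon-stimulated genes were higher almost as a block. Of 54 listed genes 53 were tested; 50 rose, 2 fell and 1 did not pass, with a median change of 0.78 against 0.024 over all genes tested. Ifit3, an antiviral protein that binds its relatives in a complex on viral RNA, had the largest rise among the named genes. It was at 416, 406 and 487 TPM in the BerberineA libraries and 71.9 to 140.1 TPM (median 132) in DMSO (1.88 ± 0.18, adjusted p = 3.82e-08). The rule for naming the largest changes requires all 3 BerberineA libraries to lie outside the DMSO range, and here they stood well above it. Its neighbour Ifit3b followed, with 93.8, 86.4 and 109.5 TPM in BerberineA and 16.6 to 32.3 TPM (median 29.1) in DMSO (1.84 ± 0.18). The pair share much of their sequence: 61.8% of the 31-base words of Ifit3 also occur in another gene's transcripts, so the division of reads between them is uncertain. With both added together the change was 1.88.

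Effectors at low level showed the same pattern. Rsad2, or viperin, a radical SAM enzyme that makes a chain-terminating nucleotide, was at 4.95, 5.53 and 6.5 TPM in BerberineA and 0.572 to 1.99 TPM (median 1.09) in DMSO (1.65 ± 0.15, adjusted p = 1.95e-08). Mx1, a dynamin-like antiviral GTPase, was at 5.16, 5.42 and 6.84 TPM and 0.855 to 2.16 TPM (median 1.46) (1.46 ± 0.14). Ifi44l was at 6.38, 6.43 and 8.17 TPM and 0.669 to 2.46 TPM (median 1.86) (1.56 ± 0.15). The groups did not overlap in any of the 3, as the naming rule requires. Phf11b and Phf11d, members of a small mouse family of PHD-finger genes, rose by 1.5 and 1.40; Phf11b shares 62.9% of its 31-base words with other genes.

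Abundant effectors rose as well. Bst2, or tetherin, which holds budding virions at the cell surface, was at 661, 700 and 732 TPM in BerberineA and 228 to 332 TPM (median 289) in DMSO (1.27 ± 0.11, adjusted p = 5.52e-09). Isg15, a ubiquitin-like modifier, was at 185 ± 12.1 TPM (SD, n = 3) against 88.2 ± 14.7 TPM (SD, n = 6), a rise of 1.07. Usp18, the protease that removes Isg15 and damps interferon signalling, rose by 1.23. Members of the 2′-5′ oligoadenylate synthetase family, which activate RNase L on double-stranded RNA, rose, with Oasl2 at 1.24, Oas2 at 1.18, Oas1a at 1.09 and Oas1g at 1.01. Oas1a and Oas1g share 68.8% and 55.1% of their 31-base words with other genes, mostly with each other. Oas3 (0.91) reached 1 TPM in the BerberineA libraries and in none of DMSO, so it entered the test through BerberineA alone and had to differ; without it 49 of 52 interferon-stimulated genes rose. The exceptions were in the Ifitm family of membrane proteins that block virus entry: Ifitm1 fell by 0.92 ± 0.12 (adjusted p = 2.26e-06) and Ifitm2 by 0.44 ± 0.080, while Ifitm3 was at 0.056 and did not pass. Ifitm2 shares 55.5% of its 31-base words with other genes.

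**Figure D1:**
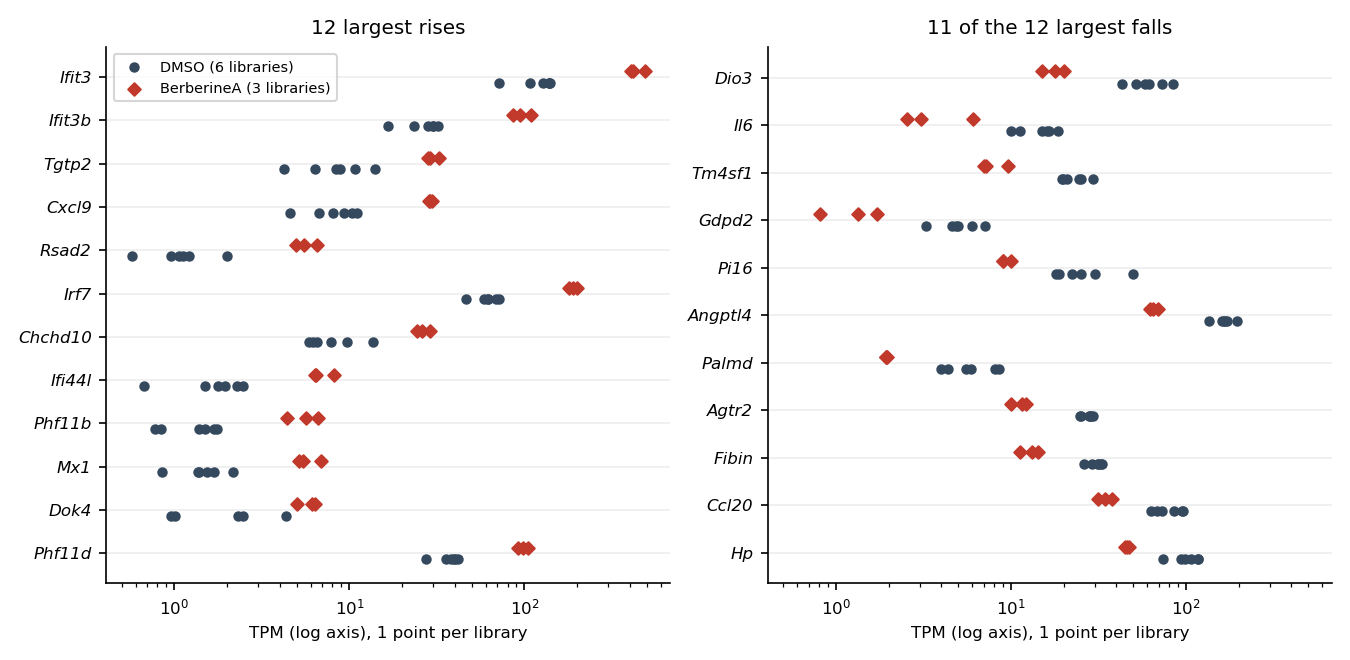
TPM in each library on a log axis for the 12 genes with the largest rise (left) and 11 of the 12 with the largest fall (right) under the naming rule; red diamonds are the 3 BerberineA libraries and dark points the 6 DMSO libraries. The BerberineA diamonds lie outside the DMSO range for every gene drawn, as the naming rule requires; 1 DMSO library at 0 TPM of Dok4 has no place on the log axis.

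Sensors of foreign or misplaced nucleic acid rose in part. Of 25 listed genes 23 were tested; 13 rose and 1 fell, with a median change of 0.36. Zbp1, a sensor of left-handed nucleic acid that can trigger necroptosis, was at 88.1, 97.7 and 97.4 TPM in BerberineA and 27.1 to 44.8 TPM (median 41.3) in DMSO (1.25 ± 0.13, adjusted p = 7.97e-08). The RNA helicases Ifih1 (MDA5), Ddx58 (RIG-I) and Dhx58 rose by 0.63, 0.47 and 0.78. The PYHIN-family genes Mndal, Ifi203, Ifi205, Ifi211 and Ifi204 rose by between 0.63 and 1.03. Ifi211 shares 78.9% of its 31-base words with other genes. Tmem173, which encodes STING, the adaptor of cytosolic DNA sensing, fell by 0.26 ± 0.060 (adjusted p = 0.00207). Cgas, the DNA sensor upstream of it, was at 1.92 ± 0.0909 TPM against 1.7 ± 0.138 TPM, and Mavs, the mitochondrial adaptor of the RNA helicases, at 21.2 ± 3.14 TPM against 19.9 ± 0.777 TPM; neither passed. Enzymes that clear or edit nucleic acid were among the rises, with the RNA editor Adar at 0.41 and the nucleotide hydrolase Samhd1 at 0.40.

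Components that carry the interferon signal rose in part. Irf7, a transcription factor that amplifies interferon production, was at 181, 189.6 and 198 TPM in BerberineA and 46.4 to 72 TPM (median 62) in DMSO (1.62 ± 0.13, adjusted p = 4.49e-09). Its groups did not overlap, as the naming rule requires. Stat2 and its DNA-binding partner Irf9 rose by 0.63 and 0.48. Ifnar2, a type I interferon receptor chain, rose by 0.16 (adjusted p = 0.0239, 0.149 without BerberineA replicate 2 and 0.0508 without DMSO replicate 4), while Ifngr1, a chain of the interferon gamma receptor, fell by 0.54 and the feedback inhibitor Socs3 by 0.58. In all, 5 of 17 tested members of 21 listed rose (29.4%) and 2 fell (11.8%), against 13.2% and 9.71% of all genes. Irf3 and Irf1 did not pass (-0.21 and 0.067), nor did the kinases Jak1 and Jak2. Interferon transcripts themselves were hardly seen: Ifnb1 was listed at 0 in the BerberineA libraries and at no more than 0.0953 TPM in DMSO, and Ifna4 was listed at 0 in all 9.

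The interferon-induced GTPases, which attack the vacuoles of intracellular pathogens, rose in 13 of 14 tested members of 18 listed, with none lower and a median of 0.83. Tgtp2 was at 28.9, 28 and 32.5 TPM in BerberineA and 4.24 to 14.1 TPM (median 8.61) in DMSO (1.73 ± 0.22, adjusted p = 2.18e-06). Its near copy Tgtp1 (1.05) was below 1 TPM in every DMSO library, so it entered the test through BerberineA alone and had to differ, and without it and Gbp8, which reached 1 TPM in fewer than 3 DMSO libraries, 12 of 12 members rose; 90.5% of the 31-base words of Tgtp2 occur elsewhere, so the pair cannot be kept apart with certainty. Irgm1 was at 116, 119 and 134 TPM and 42.4 to 60.8 TPM (median 59.3) (1.14 ± 0.11). Gbp3, whose promoter is printed above, rose by 1.13 ± 0.13, and Ifi47 by 1.15 ± 0.15. Gbp8 was the member that did not pass, at 0.931 ± 0.132 TPM against 0.781 ± 0.346 TPM.

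Antigen presentation genes rose in 20 of 21 members, all of them tested, with a median of 0.63 and no falls. The set covers class I heavy chains, the peptide transporter and the immunoproteasome, which cuts peptides for class I. H2-K1, a classical heavy chain, was at 1546, 1739 and 1653 TPM in BerberineA and 889 to 1130.5 TPM (median 978) in DMSO (0.74 ± 0.071, adjusted p = 3.79e-08), and H2-D1 rose by 0.55. B2m, the light chain of every class I molecule, was the most abundant, at 5927 ± 198 TPM (SD, n = 3) against 4395 ± 395 TPM (SD, n = 6), a rise of 0.44. The immunoproteasome subunits Psmb9, Psmb8 and Psmb10 rose by 0.89, 0.82 and 0.49, and the peptide transporter subunit Tap1 by 0.72. Nonclassical heavy chains had the largest changes, with H2-T24 at 1.20, H2-Q7 at 1.11 and H2-Q4 at 1.07, but these paralogs share sequence (38.4% of the 31-base words of H2-Q4). Nlrc5, the activator of class I genes, was higher at 0.41 without passing (adjusted p = 0.18). Macrophages express these genes too. Of 8 macrophage markers tested, Cd68 rose (0.37; adjusted p of 0.056 without BerberineA replicate 1) while Lyz2 (-0.83), Adgre1 (-0.61) and Csf1r (-0.34; adjusted p of 0.071 without BerberineA replicate 1) fell, and the summed level given above was lower in BerberineA. Their part in the interferon and antigen presentation rises was not tested.

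Chemokines moved in both directions. Of 25 tested, 7 (28%) rose and 9 (36%) fell, against 13.2% and 9.71% of all genes, with a median near 0 (-0.012). The count of 9 falls became 5 without BerberineA replicate 2. Cxcl9, a CXCR3 ligand that draws T cells, was at 28.5, 28.7 and 29.6 TPM in BerberineA and 4.56 to 11.1 TPM (median 8.63) in DMSO (1.73 ± 0.16, adjusted p = 1.95e-08). The other CXCR3 ligands, Cxcl10 and Cxcl11, rose by 1.27 and 1.74. Ccl12, Ccl11, Ccl8 and Ccl5 followed at 1.04, 0.79, 0.53 and 0.51. The largest fall in the list was that of Ccl20, the CCR6 ligand, which was at 38, 34.4 and 31.5 TPM and 62.7 to 95.5 TPM (median 79.2) (-1.17 ± 0.13). Cxcl1, a neutrophil attractant, was at 698, 674 and 707 TPM in BerberineA and 1336 to 1479.9 TPM (median 1441) in DMSO (-1.04 ± 0.081, adjusted p = 2.24e-09). In both the groups were apart, which the naming rule requires of Ccl20. Ccl2, a monocyte attractant, fell by 0.51 and the membrane-bound Cx3cl1 by 0.46.

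**Figure D2:**
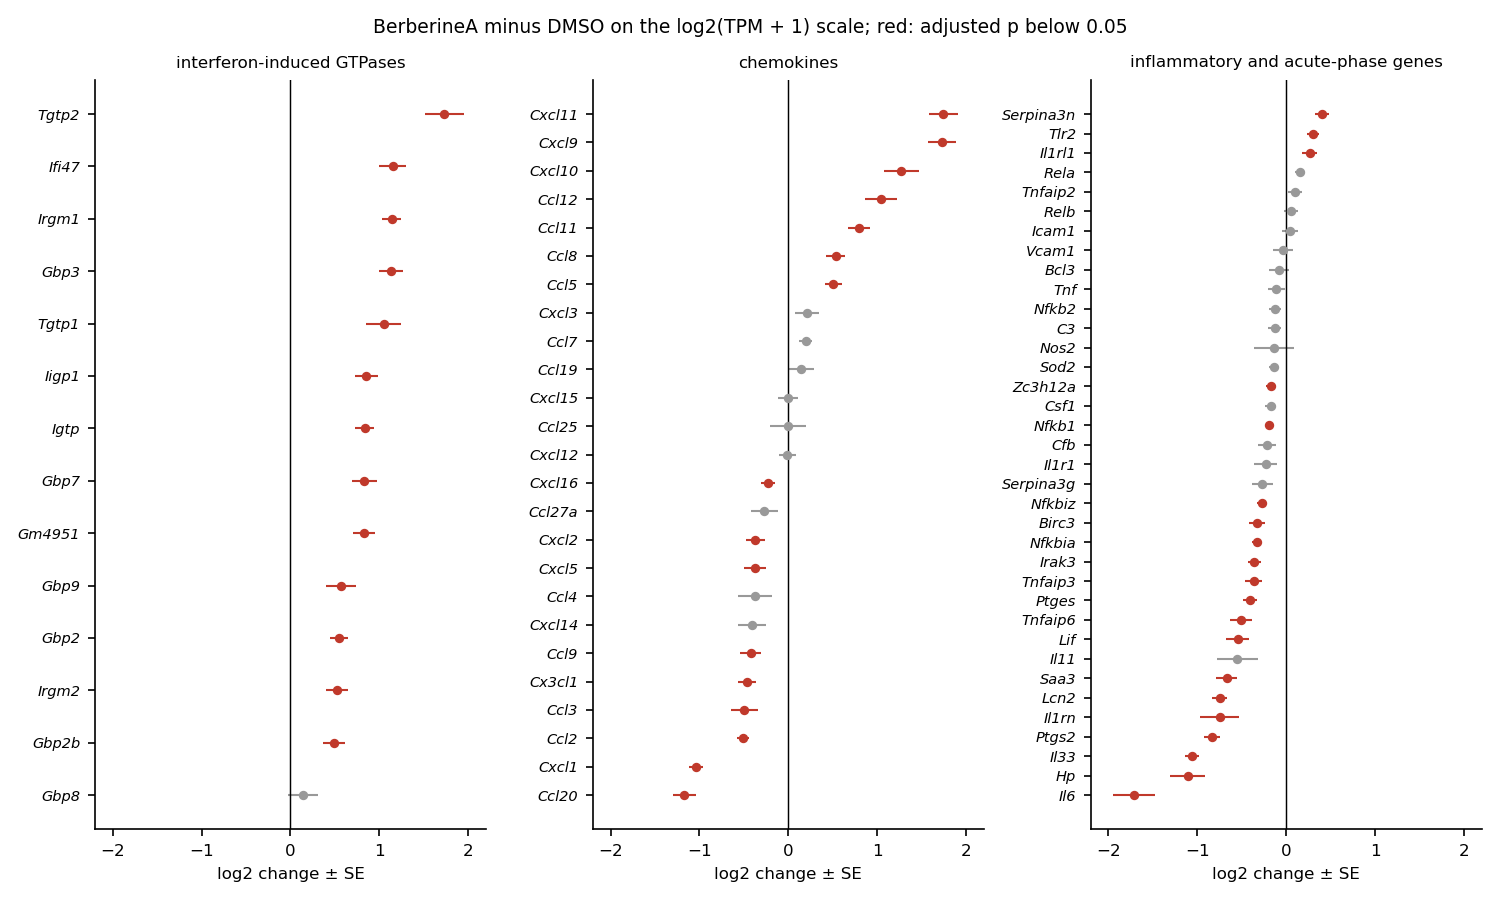
Estimated log2 change ± SE (BerberineA minus DMSO, limma on log2(TPM + 1)) for every tested interferon-induced GTPase, chemokine and inflammatory gene; red points pass an adjusted p of 0.05 and grey points do not. The GTPases lie to the right of 0, the chemokines run from Ccl20 at -1.17 to Cxcl11 at 1.74, and the inflammatory genes reach -1.71 at Il6.

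Inflammatory and acute-phase genes fell more often than they rose: of 36 tested members of 40 listed, 17 fell and 3 rose, with a median of -0.23. The DMSO cultures already expressed this programme, with Saa3, an acute-phase protein, at 32372 ± 2519 TPM (SD, n = 6), among the most abundant transcripts of the table. Il6, the cytokine that drives the acute phase, was at 6.02, 3.06 and 2.54 TPM in BerberineA and 10 to 18.5 TPM (median 15.5) in DMSO (-1.71 ± 0.24, adjusted p = 6.08e-06). Every BerberineA library was below the lowest DMSO library, as the naming rule requires. Hp, or haptoglobin, was at 46.1, 47 and 44.6 TPM and 73.9 to 118 TPM (median 102) (-1.11 ± 0.19). Il33, a nuclear alarmin, was at 18.6, 18.6 and 18.4 TPM and 34 to 45.4 TPM (median 40.5) (-1.06 ± 0.082, adjusted p = 1.83e-09). Ptgs2, the inducible cyclooxygenase, fell by 0.83, the siderophore-binding Lcn2 by 0.75 and Saa3 by 0.67. Markers of macrophages, which also make many of these products, were lower as well: their summed level was lower in every BerberineA library than in any DMSO library, and Lyz2, Adgre1 and Csf1r fell, with the values given above. Their part in the inflammatory falls was not tested.

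The feedback genes of NF-kB moved less. Nfkbia, its inhibitor, fell by 0.33 ± 0.049, and Tnfaip3, a ubiquitin-editing enzyme, by 0.37 ± 0.096 (adjusted p = 0.0063, and 0.0939 without BerberineA replicate 1). Other known targets, among them Vcam1 (-0.036), Icam1 (0.038), Sod2 (-0.14), C3 (-0.13) and Nos2 (-0.14), did not pass. Serpina3n, Tlr2 and Il1rl1 were the 3 that rose, by 0.40, 0.30 and 0.26, the last with an adjusted p of 0.151 without BerberineA replicate 1. A kappaB motif, searched as GGGANNTTCC on both strands in the same windows, occurred in 4 of 29 of these genes with a window (13.8%) and in 4 of 17 chemokines (23.5%), against 1.63% of all windows. The stretches around it in Il6, at chr5:30013025-30013124 (+ strand), and Cxcl1, at chr5:90891129-90891228 (+ strand), are shown because both genes fell by more than 2-fold. Genes with a match did not all move one way: among the inflammatory genes Nfkbia fell while Csf1 (-0.18) and Nfkb2 (-0.13) did not pass, and among the chemokines Cxcl2 (-0.37; adjusted p of 0.0626 without BerberineA replicate 2, and 0.126 with DMSO replicates 4 to 6 alone) fell, Cxcl3 (0.21) did not pass and Cxcl10 rose (1.27).
Il6: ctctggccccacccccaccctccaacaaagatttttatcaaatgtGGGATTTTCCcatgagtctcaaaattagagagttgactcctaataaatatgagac
Cxcl1: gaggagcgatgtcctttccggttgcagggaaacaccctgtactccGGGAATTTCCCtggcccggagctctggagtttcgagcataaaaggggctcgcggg

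Mitochondrial transcripts and 1 unusual gene stood out next. Gm20594, a gene at chr6:79817916-79818364 on GRCm38, annotated as protein-coding, was at 2033, 1937 and 1828 TPM in BerberineA and 182 to 259 TPM (median 227) in DMSO. The change of 3.12 ± 0.11 (adjusted p = 7.21e-16) was the largest among genes that passed the test other than the pseudogene Hsp25-ps1 (3 BerberineA libraries at 9.78, 20.4 and 19.3 TPM, DMSO at 0 to 1.55 TPM (median 0)), which met the filter only through BerberineA. The gene lies outside the naming rule because its symbol is a predicted-gene name, and it was singled out after its values were seen. Of its 419 words of 31 bases, 42 (10.0%) also occur in mt-Rnr2, the large ribosomal RNA of the mitochondrion. The abundance of mt-Rnr2 itself was not analysed here, and whether reads from it were counted under Gm20594 was not tested. Among the other groups Antimycin A had the next level, at 886 ± 69.9 TPM (SD, n = 3), and the rest ranged in mean from 127 TPM in Cardamonin to 290 TPM in Clofilium tosylate.

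The 13 proteins made from mitochondrial DNA, which are subunits of complexes I, III, IV and V, rose in part. As deposited, 8 of 13 rose and none fell, with a median of 0.27; under the 3 other scalings 6 to 8 rose and 1 fell, and without BerberineA replicate 1 the count of rises was 4. Their share of the listed TPM, without the nuclear copies described below, was 6.19%, 5.49% and 5.43% in the BerberineA libraries and 4.62% to 5.39% in DMSO. The means differed by 0.628 percentage points with an exact permutation p of 0.0238. The share with copies added was not compared. Replicate 1 had the highest share, and without it the difference was 0.384 percentage points with an exact p of 0.107. The nuclear genome holds near-identical copies of some of these genes on chr1, between 24612775 and 24616197, namely of mt-Nd3, mt-Co3, mt-Atp6, mt-Co2 and mt-Co1. For these the deposited table divides reads between the original and the copy. Gm29216, a copy of which 97.2% of 31-base words occur in mt-Co1, rose by 0.67, while mt-Co1 itself was at -0.077 and did not pass (0.17 with quantile normalization). With each copy added to its original, on the deposited scale, 9 of 13 rose and none fell, with a median of 0.23. The changes then ran from -0.31 in mt-Nd4l, which did not pass, to 0.44 in mt-Nd6, a complex I subunit and the protein encoded on the light strand.

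**Figure D3:**
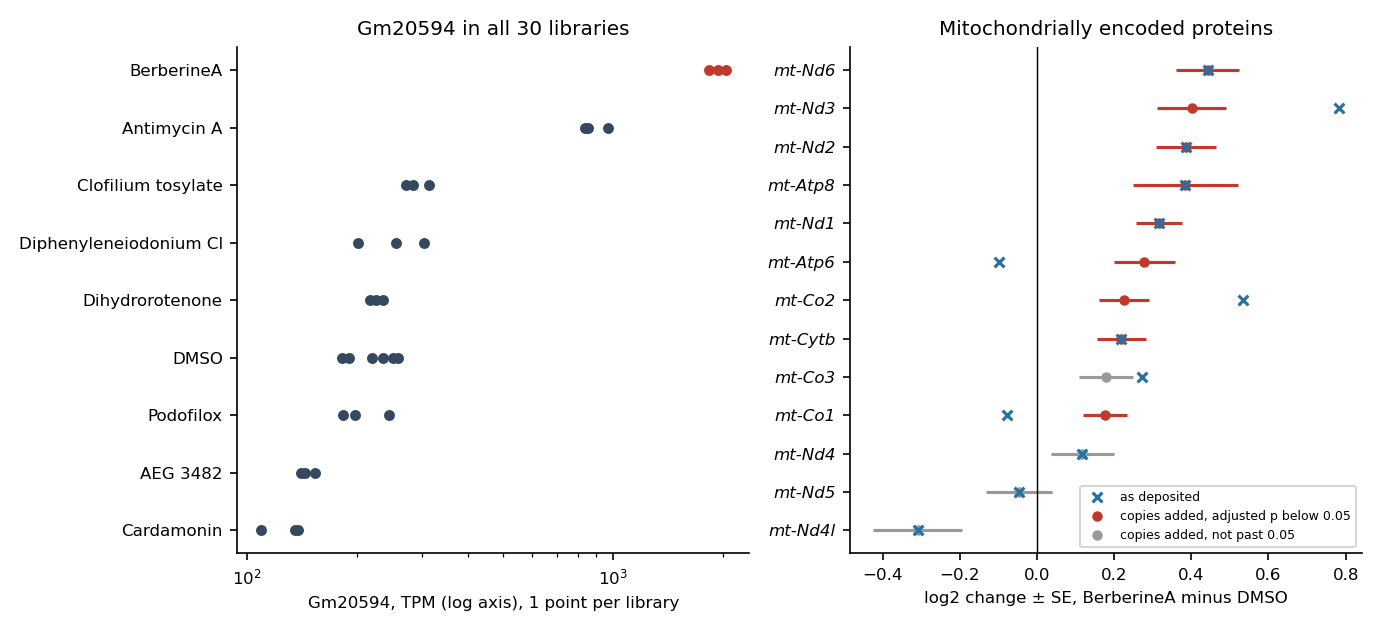
Left, TPM of Gm20594 on a log axis in each of the 30 libraries, by group, with BerberineA in red; right, log2 change ± SE (BerberineA minus DMSO) of the 13 mitochondrially encoded proteins with nuclear copies added (circles, red where the adjusted p is below 0.05) and as deposited (crosses). Gm20594 is highest in the 3 BerberineA libraries, and adding copies brings mt-Nd3, mt-Co2, mt-Atp6 and mt-Co1 closer to the other genes.

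Nuclear genes of the respiratory chain hardly moved. Of 49 complex I genes, 5 rose and none fell (median 0.033), and of 40 tested genes of complexes II to V, 3 rose and 1 fell (median 0.038); both shares of rises are below the 13.2% of all genes. The 5 complex I calls became 1 to 3 under the other 3 scalings. Among regulators of mitochondrial number and stress, 6 of 31 tested members of 34 listed rose (19.4%, against 13.2% of all genes) and 1 fell; under the 3 other scalings 5 or 6 rose and 3 fell. Tfam, the packaging protein of mitochondrial DNA, was at -0.095 and Polrmt at -0.021, and neither passed. Chchd10 had the largest rise of the list. This small intermembrane space protein, known to rise in mitochondrial disease, was at 25.8, 24.5 and 28.9 TPM in BerberineA and 5.87 to 13.6 TPM (median 7.17) in DMSO (1.61 ± 0.17, adjusted p = 1.06e-07). Its groups did not overlap, as the naming rule requires. Gdf15, a stress hormone secreted by cells with impaired mitochondria, was at 7.84, 8.97 and 7.6 TPM and 3.87 to 5.92 TPM (median 5.1) (0.60 ± 0.091, adjusted p = 2.22e-05). The matrix protease subunit Clpp rose by 0.26 (adjusted p of 0.0506 in a fit of BerberineA and DMSO alone), and Fgf21, the other hormone of this response, was at no more than 0.436 TPM in any of the 9 libraries.

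Genes of glucose use and energy sensing moved modestly. Glycolysis had 5 rises and 1 fall in 30 tested members of 31 listed, a share of rises of 16.7% against 13.2% of all genes. Eno2, a neuronal-type enolase, rose by 0.45, Ldhb by 0.32 and Tpi1 by 0.27 (adjusted p of 0.0596 with DMSO replicates 4 to 6 alone), while the lactate carrier Slc16a1 fell by 0.49. Hk2, Ldha and Pfkfb3 did not pass (0.035, -0.0080 and -0.12). Hypoxia targets had 4 rises and 4 falls in 20 tested members, against 13.2% and 9.71% of all genes. Both shares were above those of all genes, the share of falls by more. The rises were led by Vegfa (0.43) and the mitophagy receptor Bnip3 (0.41), and the falls by Epas1 (-0.78), which encodes HIF-2alpha. Of 21 tested AMPK-related genes 6 rose (28.6%) and 2 fell (9.5%). The rises were led by Fnip2 (0.50), its partner folliculin Flcn (0.32), the stress-induced Sesn2 (0.30) and the autophagy kinase Ulk1 (0.27; adjusted p of 0.053 with DMSO replicates 1 to 3 alone).

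The integrated stress response was uneven. Of 42 tested members 11 rose (26.2%) and 4 fell (9.5%), against 13.2% and 9.71% of all genes. The median was 0.028, close to that of all genes. Trib3, a pseudokinase induced by ATF4 and CHOP, was at 9.45, 9.35 and 9.19 TPM in BerberineA and 3.05 to 4.97 TPM (median 4.68) in DMSO (0.94 ± 0.096, adjusted p = 9.35e-08), with no overlap. Ddit3, which encodes CHOP, rose by 0.52 ± 0.071, Vldlr by 0.61 ± 0.12 and Nupr1 by 0.42 ± 0.051. Amino acid synthesis genes of the same programme did not join them: Asns (0.15), Phgdh (0.16), Psat1 (-0.0034) and the folate enzyme Mthfd2 (0.15) did not pass, nor did Atf4 itself (-0.062). Pycr1, the last enzyme of proline synthesis in mitochondria, fell: it was at 8.31, 7.84 and 6.94 TPM in BerberineA and 13.9 to 19.4 TPM (median 17.5) in DMSO (-1.06 ± 0.12, adjusted p = 5.87e-07). The aminoacyl-tRNA synthetases Cars and Nars rose by 0.37 and 0.17.

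Targets of the aryl hydrocarbon receptor, a ligand-activated factor that senses planar aromatic compounds, rose in 5 of 9 tested members of 11 listed, and 2 fell. These shares were 55.6% and 22.2%, against 13.2% and 9.71% of all genes. Aldh3a1, an aldehyde dehydrogenase, was at 47.5, 64.6 and 66.2 TPM in BerberineA and 29.8 to 52.2 TPM (median 34.4) in DMSO (0.70 ± 0.14, adjusted p = 0.000681). BerberineA replicate 1 fell within the DMSO range and the other 2 libraries lay above it. Cyp1b1, the fibroblast cytochrome of this pathway, was at 109, 125 and 126 TPM and 64.4 to 109 TPM (median 84.5) (0.52 ± 0.13); replicate 1 was again the lowest of the 3, just above the highest DMSO library. Ahrr, the receptor's repressor, rose by 0.60 ± 0.11 and Tiparp, an ADP-ribosylating feedback enzyme, by 0.40 ± 0.10 (adjusted p of 0.06 in a fit of BerberineA and DMSO alone). The receptor gene Ahr fell by 0.74 ± 0.085. Cyp1a1, the classical hepatic target, stayed at or below 0.0867 TPM in all 9 libraries.

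NRF2 targets, the antioxidant and detoxification genes named in the study's question, did not rise as a group. Of 41 tested members of 42 listed, 10 fell (24.4%) and 5 rose (12.2%), against 9.71% and 13.2% of all genes. Their median change was -0.024. Slc7a11, the cystine transporter that feeds glutathione synthesis, was at 13.6, 14 and 13.2 TPM in BerberineA and 15.7 to 25.6 TPM (median 18.4) in DMSO (-0.45 ± 0.10, adjusted p = 0.0015). Txnrd1, the cytosolic thioredoxin reductase, fell by 0.44 ± 0.074, Srxn1, sulfiredoxin, by 0.40 ± 0.068, Osgin1 by 0.52 ± 0.095 and Hmox1, heme oxygenase, by 0.32 ± 0.083 (adjusted p of 0.0878 in a fit of BerberineA and DMSO alone). Nqo1, a quinone reductase that the aryl hydrocarbon receptor also controls, was at 104, 107 and 103 TPM and 79.4 to 108 TPM (median 88.9) (0.21 ± 0.069, adjusted p = 0.0322). The groups overlapped, since 1 DMSO library lay above all 3, and the call was lost without any 1 BerberineA replicate or without DMSO replicate 1, 2, 3 or 6 (adjusted p 0.0503 to 0.115), and under 6 other alternatives, up to 0.277 with DMSO replicates 4 to 6 alone. Ftl1, the ferritin light chain, and the carbonyl reductases Cbr1 and Cbr3 rose by 0.31, 0.34 and 0.22. Gclm, Gclc and the factor's own gene Nfe2l2 did not pass (0.087, -0.15 and 0.082). Of 8 tested efflux transporters 3 fell (37.5%, against 9.71% of all genes) and none rose.

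Chaperones and folding enzymes of the endoplasmic reticulum fell in 17 of 26 members, all tested, and none rose (median -0.22). Hspa5, or BiP, the master chaperone of the compartment, was at 408, 459 and 439.8 TPM in BerberineA and 655 to 724 TPM (median 678) in DMSO (-0.65 ± 0.046, adjusted p = 4.49e-10). Calr, the lectin chaperone calreticulin, was at 766, 772 and 805 TPM and 1029 to 1125 TPM (median 1089.6) (-0.47 ± 0.047). Xbp1, the transcription factor spliced by Ire1, fell by 0.47, the secreted Manf by 0.46, Eif2ak3, which encodes the sensor kinase PERK, by 0.42 and Hsp90b1 by 0.29. The other sensors, Atf6 and Ern1, did not pass (0.028 and 0.12). Cytosolic heat shock genes showed 3 rises and 5 falls in 21, or 14.3% and 23.8%, against 13.2% and 9.71% of all genes.

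An ER stress response element, searched as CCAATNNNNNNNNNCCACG on both strands, occurred in 9 of 22 of these genes with a window (40.9%), against 37 of 27025 windows (0.137%). Stretches holding it are shown for 3 members that fell: Hspa5 at chr2:34771984-34772083 (+ strand), Hsp90b1 at chr10:86705595-86705694 (- strand) and Calr at chr8:84847035-84847134 (- strand), the last with the motif on the opposite strand.
Hspa5: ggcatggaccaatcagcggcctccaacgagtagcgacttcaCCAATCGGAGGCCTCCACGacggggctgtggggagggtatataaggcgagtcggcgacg
Hsp90b1: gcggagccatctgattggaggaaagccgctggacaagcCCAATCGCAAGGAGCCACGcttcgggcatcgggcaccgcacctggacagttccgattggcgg
Calr: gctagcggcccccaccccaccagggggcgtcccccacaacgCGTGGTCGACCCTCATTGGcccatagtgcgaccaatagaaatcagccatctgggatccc

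Sterol genes fell together. Of 32 members, all tested, 19 fell and none rose, with a median of -0.34. Hmgcs1, which makes the precursor of mevalonate, was at 37.2, 36.3 and 32.7 TPM in BerberineA and 49 to 65.5 TPM (median 55.5) in DMSO (-0.63 ± 0.071, adjusted p = 3.39e-07). Fdps, Cyp51 and Idi1 fell by 0.60, 0.59 and 0.55. Srebf2, the gene of the factor that drives this set, fell by 0.23 (adjusted p = 0.0124, and 0.11 without BerberineA replicate 1). A short sterol response element, TCACNCCAC, was found in 1 of 23 windows of these genes and in 1.44% of all windows.

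Fatty acid genes fell in 9 of 28 tested members of 29 listed (32.1%) and rose in 1 (3.6%), against 9.71% and 13.2% of all genes. Angptl4, a secreted inhibitor of lipoprotein lipase, was at 68.7, 64.3 and 61.9 TPM in BerberineA and 136 to 196 TPM (median 166) in DMSO (-1.33 ± 0.14, adjusted p = 2.32e-07). The desaturases Scd1, Fads2 and Scd2 fell by 0.75, 0.63 and 0.40. The oxidation genes Cpt1a and Acadm did not pass (-0.015 and -0.034). The brain-type Cpt1c was the rise, at 0.28 (adjusted p = 0.0232, 0.0889 without BerberineA replicate 2 and 0.168 without replicate 3).

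**Figure D4:**
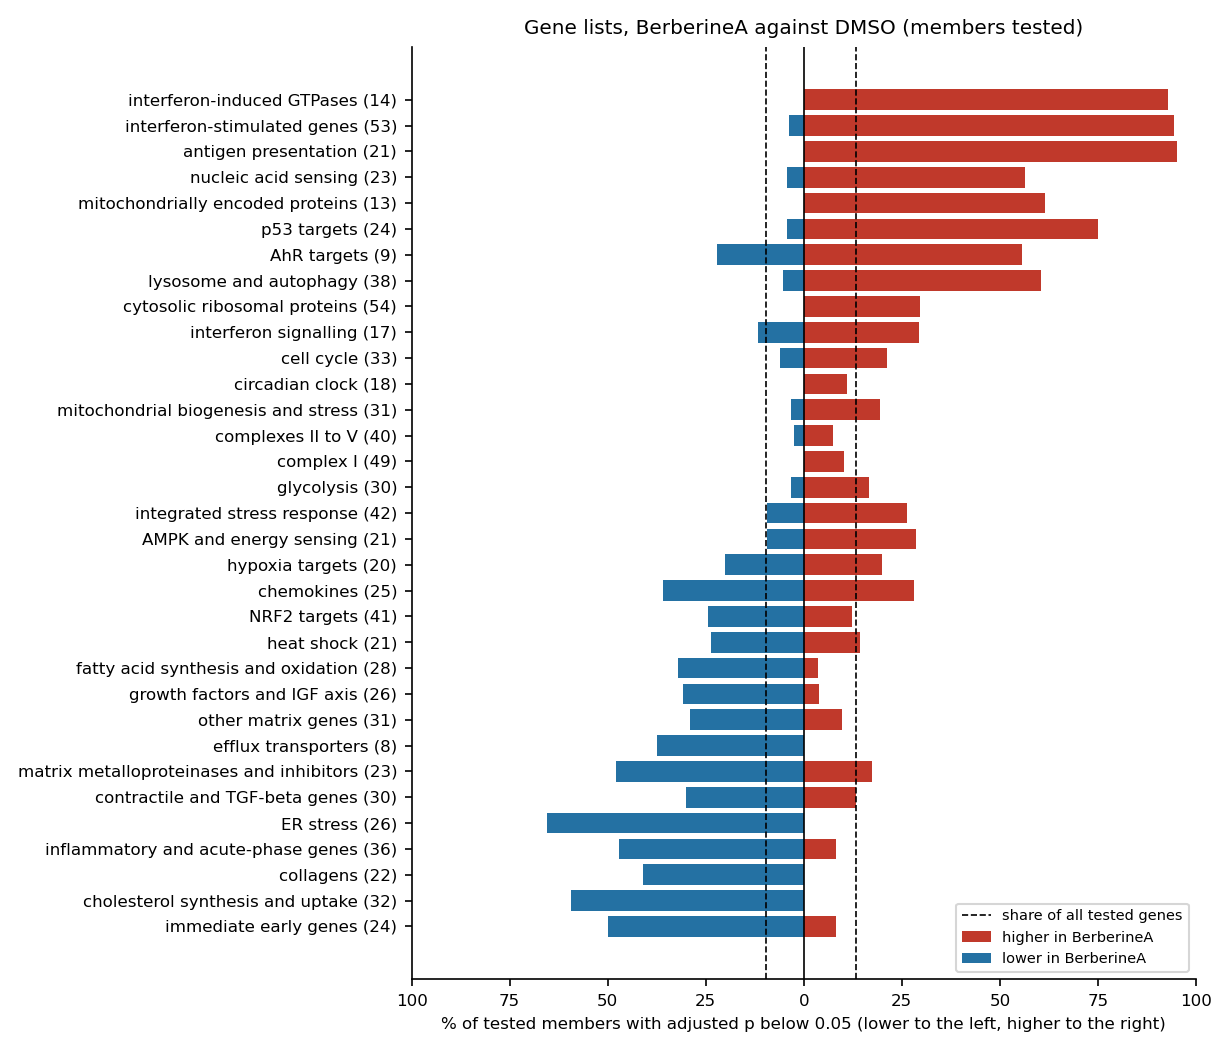
Share of tested members of each gene list (number tested in parentheses, lists of at least 8) that passed an adjusted p of 0.05, higher to the right and lower to the left, ordered by median change; dashed lines mark the shares of all 12917 genes, 13.2% higher and 9.71% lower. Interferon and antigen presentation lists reach the right edge, with 94.3% and 95.2% higher, and the ER stress, cholesterol and immediate early lists extend furthest to the left.

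Growth signalling and matrix genes were lower in part. Immediate early and growth factor feedback genes fell in 12 of 24 tested members of 25 listed and rose in 2, with a median of -0.35. Dusp6, the ERK phosphatase, was at 12, 12.4 and 15.2 TPM in BerberineA and 18.1 to 21.5 TPM (median 20.9) in DMSO (-0.61 ± 0.069, adjusted p = 3.98e-07). The nuclear receptor Nr4a1 fell by 0.89 (adjusted p of 0.0626 with DMSO replicates 1 to 3 alone) and Egr3 by 0.83, while Egr1 was at -0.59 and did not pass. Among growth factors 8 of 26 tested members of 29 listed fell (30.8%) and 1 rose (3.8%), against 9.71% and 13.2% of all genes. Bmp4 fell by 0.94, Fgf7, a keratinocyte growth factor, by 0.68 and Igfbp3 by 0.53.

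Collagen chains fell in 9 of 22 tested members of 25 listed and rose in none. Col3a1 was at 1712, 1939.6 and 1868 TPM in BerberineA and 2486 to 3027 TPM (median 2737) in DMSO (-0.57 ± 0.096, adjusted p = 8.24e-05), and Col12a1 fell by 0.63. The chains of type I collagen, Col1a1 and Col1a2, were at -0.29 and -0.15 and did not pass. Other matrix genes had 9 falls (29.0%) and 3 rises (9.7%) in 31, against 9.71% and 13.2% of all genes. Lum (-0.71), Dcn (-0.56) and Sparc (-0.50) were among the falls. Of the 5 fibroblast markers that fell, Col3a1, Dcn and Lum belong to these lists, and Thy1 (-0.31) and S100a4 (-0.62) do not; Twist2 (0.52) and Prrx1 (0.23) rose, Prrx1 with adjusted p-values of 0.0565 to 0.188 without BerberineA replicate 2 or 3 or DMSO replicate 1, 2 or 6. The part of the marker shift in the matrix falls was not tested.

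Proteases and their inhibitors were lower in 11 of 23 tested members of 25 listed (47.8%) and higher in 4 (17.4%). Plaur, the urokinase receptor, fell by 1.0, and the collagenase Mmp13, the gelatinase Mmp9 and the stromelysin Mmp3 by 0.71, 0.69 and 0.62. Mmp11, or stromelysin-3, went the other way, from 213 to 477 TPM (median 299.5) in DMSO to 694, 730.3 and 733 TPM in BerberineA (1.14 ± 0.17, adjusted p = 1.22e-05). Targets of TGF-beta and serum response factor fell in 9 of 30 tested members of 32 listed (30.0%) and rose in 4 (13.3%). For both lists the shares of all genes were 9.71% lower and 13.2% higher. The count of rises was 1 under each of the 3 other scalings. Ccn2 fell by 0.87, the BMP target Id3 by 0.72 and Acta2, smooth muscle actin, by 0.55. The 6 smooth muscle and pericyte markers, Acta2 among them, summed to between 172.2 and 178.1 TPM in BerberineA and between 199.9 and 328.4 TPM in DMSO, with 2 of 3 tested lower and 1 higher, and their part in these falls was not tested.

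Single genes completed the list of large falls. Dio3, the deiodinase that inactivates thyroid hormone and lies in the imprinted Dlk1-Dio3 domain, was at 15.1, 17.9 and 20.1 TPM in BerberineA and 43.1 to 84 TPM (median 60) in DMSO (-1.73 ± 0.15, adjusted p = 9.04e-09). Tm4sf1, a small membrane protein, was at 9.56, 6.99 and 7.21 TPM and 19.6 to 29.2 TPM (median 22.7) (-1.43 ± 0.12). Pi16, a marker of adventitial fibroblasts, was at 9.04, 10 and 8.95 TPM and 18 to 49.5 TPM (median 23.7) (-1.37 ± 0.31). The groups did not overlap in these 3 genes, as the naming rule requires. Agtr2, an angiotensin II receptor, fell by 1.21 ± 0.11, Palmd by 1.23 ± 0.21, Gdpd2 by 1.41 ± 0.17 and Fibin by 1.19 ± 0.15. Among the rises outside the lists, Dok4, an adaptor of receptor tyrosine kinases, was at 6.13, 4.99 and 6.36 TPM in BerberineA and 0 to 4.35 TPM (median 1.67) in DMSO (1.45 ± 0.41, adjusted p = 0.0109).

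Targets of p53 rose in 18 of 24 tested members of 26 listed, 1 fell, and the median was 0.27. Cdkn1a, the cyclin-dependent kinase inhibitor p21, was at 524, 596 and 604 TPM in BerberineA and 396 to 465 TPM (median 445) in DMSO (0.39 ± 0.055, adjusted p = 7.24e-06), with no overlap. Ccng1, Bbc3 and Eda2r rose by 0.44, 0.43 and 0.43, and Mdm2, the ubiquitin ligase of p53, by 0.25 (adjusted p of 0.106 in a fit of BerberineA and DMSO alone). Fas, the death receptor, fell by 0.44, and Trp53 was at -0.063 and did not pass. Of 46 listed proliferation genes 33 were tested, 7 rose (21.2%) and 2 fell (6.1%), against 13.2% and 9.71% of all genes. Cdt1, a replication licensing factor, rose by 0.58 and Tk1, thymidine kinase, fell by 0.57. The count of 7 became 4 without BerberineA replicate 1 and 3 without replicate 3.

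Lysosome and autophagy genes rose in 23 of 38 members, all tested, and 2 fell, by small amounts (median 0.17). Ctsk, a collagen-degrading cathepsin, was at 764, 722 and 726 TPM in BerberineA and 405 to 582 TPM (median 467) in DMSO (0.61 ± 0.080, adjusted p = 3.3e-06). Gpnmb, a lysosomal stress glycoprotein, rose by 0.51, and Neu1 and Lamp1 by 0.37 and 0.21. Gpnmb is also expressed in melanocytes and macrophages. The 7 melanocyte and Schwann cell markers summed to between 14.9 and 16.2 TPM in BerberineA and between 8.61 and 11.0 TPM in DMSO, with 1 of 3 tested higher (Mlana, 1.14), and their part in this rise was not tested. Cytosolic ribosomal protein genes rose in 16 of 54 and none fell (median 0.093), but the count was 3 to 9 under the other scalings and 6 without BerberineA replicate 1.

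Direct comparison with other compounds that act on respiration or flavin enzymes took the difference between BerberineA and each compound, with the spread shared over all 30 libraries and the genes filtered on BerberineA and DMSO. Doses are unknown, so these contrasts compare the cultures as treated. Dihydrorotenone, a complex I inhibitor, differed from BerberineA in 206 of 12917 genes (1.59%), with 178 (1.38%) higher and 28 (0.217%) lower in BerberineA. The median difference of all genes in this contrast was 0.0533, so the split depends in part on scaling. The count was 99 to 152 under the 3 other scalings. Diphenyleneiodonium Cl, which blocks flavoenzymes, differed in 86 (0.666%), with 34 (0.263%) higher and 52 (0.403%) lower. Antimycin A, a complex III inhibitor, differed in 1227 (9.50%), with 532 (4.12%) higher and 695 (5.38%) lower. In fits of each pair of groups alone, 8 genes differed from Dihydrorotenone, 26 from Diphenyleneiodonium Cl and 778 from Antimycin A. The counts also depended on single libraries: leaving out 1 library of either group gave 39 to 164 genes against Dihydrorotenone, where every removal but that of BerberineA replicate 1 lowered the count by more than 1.5 times, and 27 to 80 against Diphenyleneiodonium Cl, where every removal but that of BerberineA replicate 3 did. Against Antimycin A the range was 790 to 1073, with 790 without BerberineA replicate 2 and 811 without Antimycin A replicate 1. The age label of Dihydrorotenone replicate 1 is 8 to 11 weeks, and without that library 44 genes differed.

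Against Dihydrorotenone, 9 of 42 integrated stress response genes and 2 of 9 aryl hydrocarbon receptor targets were higher in BerberineA and none of either list was lower. The median differences of the 2 lists were 0.196 and 0.176, against 0.0533 over all genes. Trib3 was at 9.33 ± 0.132 TPM (SD, n = 3) against 3.86 ± 0.661 TPM (SD, n = 3), a difference of 1.10 ± 0.11 with an adjusted p of 2.91e-06. Mthfd2 differed by 0.69 ± 0.17, Chac1, a glutathione-degrading enzyme, by 0.69 ± 0.14. Cyp1b1 was higher by 0.75 ± 0.15 (adjusted p = 0.0137) and Ahrr by 0.71 ± 0.13. Of 53 interferon-stimulated genes 9 were higher and none lower, with a median difference of 0.401, and Irf7 was higher by 0.62 ± 0.15. Il33 was lower, with a difference of -0.69 ± 0.095 (adjusted p = 0.000404). Of the 13 mitochondrially encoded proteins 1 was higher and 3 were lower. These calls use the deposited values without nuclear copies added, and the part of read division between original and copy was not tested.

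Against Diphenyleneiodonium Cl, 13 of 41 NRF2 targets and 3 of 9 aryl hydrocarbon receptor targets were lower in BerberineA and none of either list was higher. Of 30 contractile and TGF-beta genes 6 were higher and none lower, and of 42 integrated stress response genes 3 were higher and 1 lower. Slc7a11 was at 13.6 ± 0.404 TPM (SD, n = 3) against 21.9 ± 2.43 TPM (SD, n = 3), a difference of -0.64 ± 0.12 with an adjusted p of 0.00598. Nqo1, Hmox1 and Srxn1 were lower, with differences of -0.47 ± 0.080, -0.45 ± 0.096 and -0.49 ± 0.078. Aldh3a1 was lower too, with -0.70 ± 0.16. Acta2 was higher by 0.86 ± 0.16 (adjusted p = 0.0089), with Actg2 at 0.84 ± 0.17 and Myl9 at 0.56 ± 0.12. Trib3 was higher by 1.0 ± 0.11. Interferon-stimulated genes showed 3 of 53 lower in BerberineA and none higher.

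Against Antimycin A the integrated stress response was far lower in BerberineA, in 28 of 42 genes with 1 higher. Trib3 differed by -1.56 ± 0.11, Chac1 by -1.5 ± 0.14, Mthfd2 by -1.47 ± 0.17 and Gdf15 by -1.28 ± 0.10. Chchd10 was at 26.4 ± 2.25 TPM (SD, n = 3) against 59.9 ± 4.3 TPM (SD, n = 3), a difference of -1.15 ± 0.19 with an adjusted p of 0.000238. Interferon-stimulated genes were also lower, in 18 of 53 with 2 higher, and NRF2 targets were lower in 22 of 41 with 1 higher. Mitochondrially encoded proteins were higher in 10 of 13 and lower in none, again on deposited values without nuclear copies added. Among them mt-Cytb, the subunit to which antimycin is known to bind, differed by 1.42 ± 0.073 (adjusted p = 1.82e-12). Dio3 was higher by 1.53 ± 0.17 and Acta2 by 1.0 ± 0.16.

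**Figure D5:**
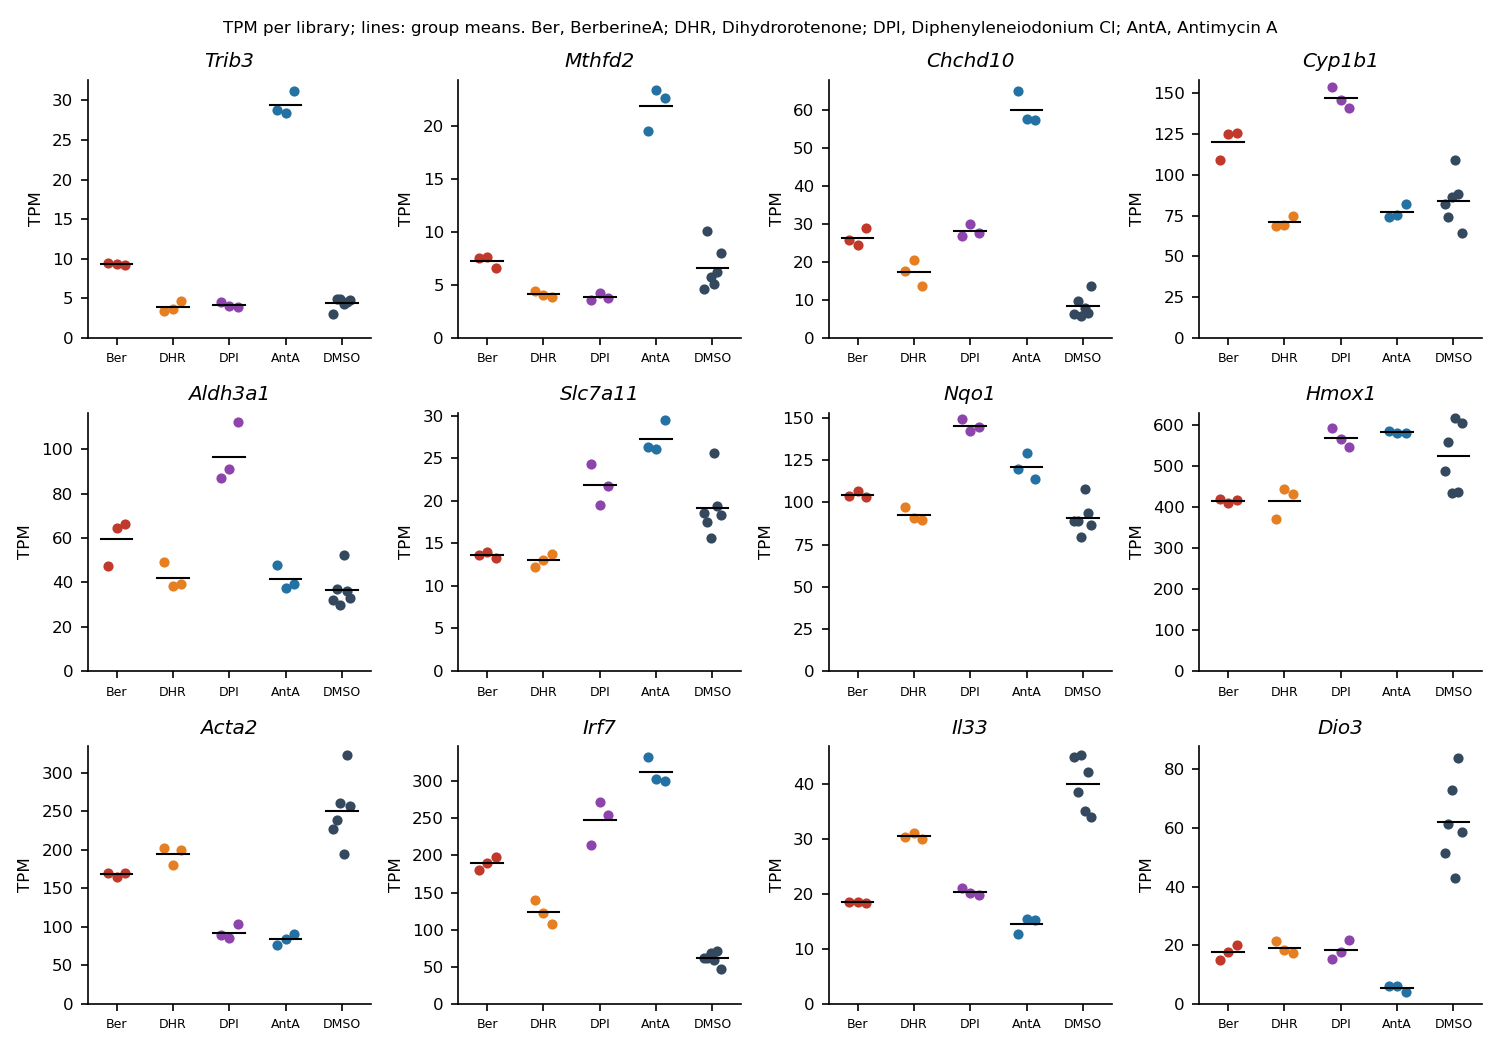
TPM per library of 12 genes in BerberineA, Dihydrorotenone, Diphenyleneiodonium Cl and Antimycin A (3 libraries each) and DMSO (6 libraries); horizontal lines are group means and each axis starts at 0. Trib3, Mthfd2, Chchd10 and Irf7 are highest in Antimycin A, Aldh3a1, Nqo1 and Cyp1b1 in Diphenyleneiodonium Cl, and Dio3 is highest in DMSO.

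BerberineA was set apart by 5 genes (0.0387%) from DMSO and from each of the 7 other compounds, with all 8 adjusted p-values below 0.05 and 1 sign. Gm20594 and the mt-Co1 copy Gm29216, described above, were higher. With copies added to mt-Co1, its change against DMSO was 0.18, and the rule was not run on values with copies added. The part of read division in the Gm29216 call was not tested. Selenow, a small selenoprotein, was at 326, 297 and 291 TPM in BerberineA and 202 to 224 TPM (median 213) in DMSO (0.51 ± 0.050, adjusted p = 4.15e-08), and no other compound's mean exceeded 261 TPM. Ilkap, a phosphatase that acts on integrin-linked kinase, was at 77.9, 76.5 and 77.2 TPM and 58.3 to 66.4 TPM (median 63) (0.30 ± 0.043). Srsf7, a splicing factor, was lower, at 22.1, 22.9 and 20.6 TPM against 27.7 to 29.6 TPM (median 29) (-0.38 ± 0.044, adjusted p = 5.47e-07), and the nearest mean of another compound was 26.4 TPM. The changes in Selenow, Ilkap and Srsf7 were below 2-fold, with the BerberineA libraries outside the DMSO range in each. Without BerberineA replicate 1 or without BerberineA replicate 3, 3 genes met the rule.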

How the data were processed

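RNA from 30 cultures of 1 mouse tail fibroblast line was sequenced after ribosomal RNA depletion, and 3 BerberineA and 6 DMSO libraries were compared. Per the labels and the submitters' processing notes, the authors quantified transcripts with kallisto 0.43.1 and summarised them per gene with tximport, and the notes name the build mm10. The transcript index and filters are not given in the sources used here. The authors deposited 1 table of TPM, which corrects reads for transcript length and scales them within a library, so a value depends on what else that library holds. Depth is unknown from TPM, so precision was judged from the spread between libraries. kallisto shares reads between similar transcripts, which makes near-identical genes uncertain. Values as deposited were used on the log2(TPM + 1) scale.

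Groups came from the sample titles. Symbols and positions came from GENCODE M21 (GRCm38), which matched 29426 of 29861 genes; 435 had no symbol. All 30 libraries entered 1 fit with limma 3.58.1 in R 4.3.3 (1 mean per group, empirical Bayes with an intensity trend, no covariate), and Benjamini-Hochberg adjustment was made over 12917 genes at a threshold of 0.05. Direct contrasts used the same fit. Library measures were compared by two-sided exact permutation of group labels over 84 splits. The code was tested on simulated data.

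Named genes were the 12 largest rises and 12 largest falls among called protein-coding genes whose higher group averaged 5 TPM or more, whose BerberineA libraries all lay outside the DMSO range, and whose symbol is no Gm, Rik, pseudogene or clone name; 1 of the falls is not reported here. Genes set apart from all groups and members of 34 gene lists were also named, list members by size of change or because they define the list. The members and lists were chosen with earlier results of these data known. Of 990 list entries (970 distinct symbols) 8 matched no gene. Replicate numbers did not pair BerberineA with DMSO: deviations of same-numbered libraries of these groups correlated at 0.034, -0.041 and 0.094. Alternatives changed the pseudocount, the filter, the scaling, the empirical Bayes step, the genes tested, the controls, the samples in the fit and each library; adding near-identical copies together was chosen after seeing the data.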

Additional observations from a re-analysis of the deposited data

Results flagged for a closer look

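In 16 of 238 groups of DMSO values examined (234 named genes and 4 library measures), 1 of the 6 libraries lay apart from the other 5, with a gap to its neighbour that was a larger part of the whole range than Dixon's 95% limit. Chance flags about 1 group in 20.

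DMSO replicate 6 was low in 4 interferon-related genes. It had 24.8 TPM of Adar, 4.96 TPM of Oas1a, 24.1 TPM of Tap1 and 27.1 TPM of Zbp1, where the next lowest DMSO libraries had 30.5, 7.26, 30.3 and 39.1 TPM. Without this library the number of interferon-stimulated genes that rose was 49 of 53, against 50 with it. Replicate 6 also had 1.55 TPM of the pseudogene Hsp25-ps1, and the other 5 had at most 1.66e-07 TPM.

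DMSO replicate 4 was high in Aldh3a1 (52.3 TPM, next highest 36.8), Bnip3 (263 TPM, next 203), Oas3 (0.741 TPM, next 0.602) and Slc7a11 (25.7 TPM, next 19.4), and low in Tmem173 (44.6 TPM, next lowest 52.4). DMSO replicate 1 was low in Dusp6 (18.1 TPM, next 20.6), Socs3 (113 TPM, next 127) and Trib3 (3.05 TPM, next 4.26), and high in mt-Co2 as deposited (6030.3 TPM, next highest 4763). With nuclear copies added, mt-Co2 ranged from 8297.5 to 9686.7 TPM in DMSO. The part of read division in this flag was not tested. DMSO replicate 5 was high in Idi1 (32.5 TPM, next 27.6). DMSO replicate 2 was high in Ddit3 (97.0 TPM, next 83.7).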

How the results depend on the processing

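The count of 2965 changed genes ranged from 2258 to 3219 over the alternatives that kept all BerberineA libraries and used a fit of all groups, was 2028 in a fit of BerberineA and DMSO alone, and ran from 2230 to 3054 when 1 library was left out (1166 to 1784 higher, 945 to 1306 lower). Replicate numbers did not pair BerberineA with DMSO, and pairing with the other compounds was not tested. With the replicate number as a block 2678 genes changed against DMSO. With that block 368 genes differed from Dihydrorotenone, 146 from Diphenyleneiodonium Cl and 1402 from Antimycin A, each more than without the block. Against Dihydrorotenone, 206 became 99 with median-ratio scaling, 113 with quantile normalization, 8 in a fit of those 6 libraries alone and 39 to 164 without 1 library. Against Antimycin A, 1227 became 778 in a fit of the pair alone and 790 to 1073 without 1 library. Against Diphenyleneiodonium Cl, 86 became 26 in a fit of the pair alone and 27 to 80 without 1 library. The cause of these shifts was not tested, beyond the smaller number of libraries. The genes set apart numbered 3 to 6 without 1 library. The total TPM differed by -1578 without DMSO replicate 4 (exact permutation p = 0.0179), and by -1578 to -1077 over the libraries left out in turn. The share of mitochondrial proteins, nuclear copies left out, differed by 0.384 to 0.766 percentage points without 1 library. Its exact permutation p was above the threshold without BerberineA replicate 1 (0.107) and without DMSO replicate 2 or 5 (0.0536). The signs of mt-Atp6 and mt-Co1 turned when copies were added (0.28 and 0.18), and that of mt-Co1 with quantile normalization (0.17).

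Of 188 named genes past the threshold 166 passed under each alternative run; 22 were lost under at least 1 and none changed sign. Among them were Dok4 (adjusted p = 0.0935 with DMSO replicates 4 to 6 alone) and Saa3 with quantile normalization, which sets the top ranks equal. Without a known depth, genes near 1 TPM cannot be given a counting error.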

Other observations

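Clock genes and cytosolic heat shock genes were measured beside the groups described above. Of 18 tested clock genes 2 rose and none fell, a share of rises of 11.1% against 13.2% of all genes. Dbp, an output factor of the clock, was at 16.4, 19 and 17.3 TPM in BerberineA and 8.7 to 15.1 TPM (median 10.9) in DMSO (0.65 ± 0.14, limma adjusted p = 0.000827), and Bhlhe41, a repressor, was at 14, 15.2 and 16.2 TPM and 6.71 to 10.7 TPM (median 8.94) (0.71 ± 0.097). The core factors Arntl and Per2 were at 0.12 and -0.20 and did not pass. Cultures were collected at 1 time after treatment, so no phase can be read from these values.

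Among the heat shock genes the inducible chaperones Hspa1b and Hspa1a fell, by 0.84 ± 0.13 and 0.68 ± 0.13, while the small heat shock protein Hspb1 rose by 0.38 ± 0.074. Of the 31-base words of Hspa1b and Hspa1a, 68% and 65.4% also occur in other genes, mostly in each other. The division of reads between the pair is therefore uncertain. The pseudogene Hsp25-ps1 was listed at 0 in 4 of the 6 DMSO libraries and met the filter only through the BerberineA libraries. Its limma adjusted p was 0.0652 with DMSO replicates 4 to 6 alone. It carries an older name of the Hspb1 protein in its symbol. Of its 600 words of 31 bases, 89.8% also occur in Hspb1. How reads were divided between Hspb1 and this pseudogene was not tested.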
